A study of Mus musculus with 2 samples.

Results

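The antioxidant and glutathione genes described here are 40 genes of the 23235 in the deposited gene table, chosen by name: the superoxide dismutases, catalase, the glutathione, glutaredoxin, peroxiredoxin and thioredoxin enzymes, and the regulators Nfe2l2 and Keap1. All 40 were found in the table. The RNA was compared between APL#2 and APL#1, clones of primary murine acute promyelocytic leukaemia that, per the series, differ in how often they hold a leukaemia-initiating cell; which clone has more is not stated. By their labels both are CD45.2+ leukaemic cells of strain C57BL/6-Ly5.2 from mCG-PML-RAR transgenic mice, with the genotype PML-RAR KI APL. Both are also labelled untreated, although their titles carry the letters VEH, and the age given is 10 weeks. Both groups thus carry the PML-RAR fusion, and no leukaemia-free control was analysed here. For APL#2, 200000 cells were injected into non-irradiated CD45.1+ recipients, and for APL#1, 2000000 cells. The CD45.2+ cells were taken from the spleen on immunomagnetic columns. Each leukaemia came from 1 mouse and is represented by 1 library, so the differences below have no replicate check, no p-value was computed, and the leukaemia, the recipient, the cell dose and the library cannot be told apart. In bulk RNA, a change in the cells present and a change in RNA per cell cannot be told apart either.

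Superoxide formed by respiration or by the phagocyte oxidase is turned into hydrogen peroxide by superoxide dismutases, and the peroxide is removed by catalase, glutathione peroxidases and peroxiredoxins. Glutathione peroxidases spend reduced glutathione, which glutathione reductase restores with NADPH; most peroxiredoxins draw instead on thioredoxin, which thioredoxin reductases restore, also with NADPH. Many of these genes are targets of the transcription factor Nfe2l2 (NRF2), which Keap1 marks for degradation while the cell is unstressed. In myeloid cells these systems work beside an oxidase that makes superoxide on purpose.

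Glutathione reductase (Gsr) and secreted superoxide dismutase (Sod3) were far higher in APL#2, while most of the other genes stood at similar or slightly lower levels there. Levels are FPKM, a fragment count divided by the length of the transcript and by library size, which lets levels of different genes be set side by side. A gene is called measured where its mean over both libraries was at least 1 FPKM, and differences are log2((APL#2 + 1)/(APL#1 + 1)) unless a plain ratio is named. Of the 40 genes, 21 were measured, and Sod3 passed only through its level in APL#2. Gsr and Sod3 were the 2 measured members at least 2-fold higher in APL#2 (2.1% of the 4100 measured genes of the table were, and 3.39% by the plain ratio), and 0 were at least 2-fold lower (2.44% of all measured genes). Across all measured genes the median difference was -0.17 and the median plain ratio 0.833, so a gene with a ratio a little under 1 lay near the bulk of the table. The 21 measured members had a median difference of 0.01, with 16 above and 5 below the all-gene median. Of the 21, 11 had the higher value in APL#2 (28.4% of all measured genes did). Without a filter, 16 of the 40 had the higher value in APL#2 (39.1% of genes above 0 in either library did) and 24 had the lower value there (60.9% of genes above 0).

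**Figure D1:**
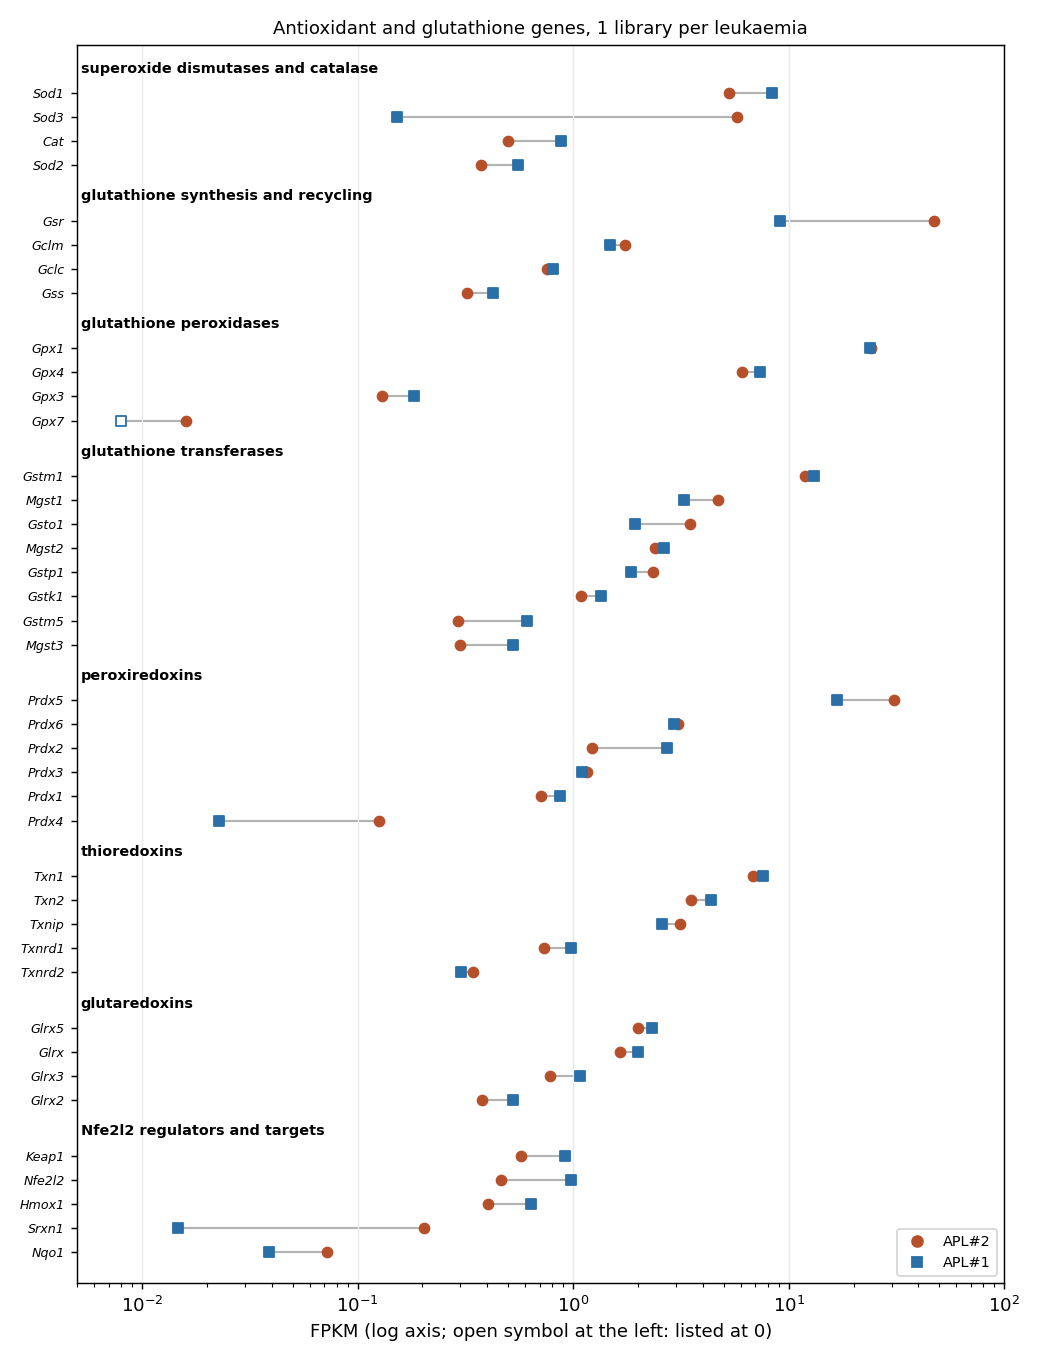
FPKM (log axis) of each of the 40 genes in APL#2 (circles) and APL#1 (squares), grouped by role and ordered by mean level; 1 library per leukaemia, with Gpx7, listed at 0 in APL#1, drawn as an open square at the left. Gsr (47.3 against 9.13) and Sod3 (5.77 against 0.152) show the widest gaps among the measured genes, and Gpx1 (24.1 against 23.9) shows almost none.

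The libraries were similar in depth. The smallest steps between low FPKM values imply that 1 fragment on a 1 kb transcript was worth 0.0177 FPKM in APL#2 and 0.0192 FPKM in APL#1, estimated from 73 low genes with 1 RefSeq transcript. Numbers of fragments given below follow from these steps and from the lengths of current transcripts, so they are approximate, and the 95% intervals of ratios cover counting error only. For Prdx4, Nqo1 and Srxn1, the smallest whole numbers of fragments that fit both values are given. Red cell RNA, rich in catalase and Prdx2, was close to nil in the genes that could be read. Of 12 erythroid genes listed, Hba-a1, Hbb-b1 and Ahsp were not found in the deposited table. The 9 found were all under 1 FPKM in both libraries, with 6 listed at 0 in APL#2 and 4 in APL#1. They summed to 0.531 FPKM in APL#2 and 0.742 FPKM in APL#1. Of the alpha and beta globin genes, those found, Hba-a2 and Hbb-b2, were each at or near 0. Of 9 genes marking spleen macrophages, which hold much Hmox1, 7 were under 1 FPKM in both libraries, Spic was listed at 0 in both, and the sum of 9.17 FPKM in APL#2 and 5.62 FPKM in APL#1 came mostly from Vcam1 (7.47 and 3.94). The macrophage gene Emr1 stood at 0.537 FPKM in APL#2 and 0.0230 FPKM in APL#1. The 6 promyelocyte genes were all above 1 FPKM in both and summed to 190.9 FPKM in APL#2 and 716.9 FPKM in APL#1, mostly from Mpo (157.3 and 661.8). They went both ways: 4 had the lower value in APL#2, 3 of them at least 2-fold lower. Ms4a3 (15.9 and 7.85) and Ctsg (8.99 and 7.89) had the higher value there. The 6 mature neutrophil genes summed to 195.3 FPKM in APL#2 and 132.0 FPKM in APL#1, mostly from Camp (152.5 and 97.5) and Ngp (41.7 and 31.7), while the other 4 had lower values in APL#2, Ltf among them (0.860 and 2.29). The 5 basophil and mast cell genes summed to 18.2 and 53.1 FPKM but went both ways: Cpa3 (7.09 and 41.3) and Hdc (1.24 and 7.75) were at least 2-fold lower in APL#2, and Mcpt8 (8.04 and 1.02) at least 2-fold higher. The 5 platelet genes summed to 4.01 FPKM in APL#2 and 2.36 FPKM in APL#1, nearly all from Itga2b (3.95 and 2.34). Pf4, Ppbp and Gp9 were listed at 0 in both libraries. The 5 B cell genes summed to 0.404 FPKM in APL#2 and 0.196 FPKM in APL#1. The 6 T and NK cell genes summed to 26.8 FPKM in APL#2 and 37.3 FPKM in APL#1, nearly all from Nkg7. What part, if any, these cell types have in the differences below was not tested.

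Gsr held the largest absolute difference of the group. It encodes glutathione reductase, which returns oxidised glutathione to its reduced form. Gsr stood at 47.3 FPKM in APL#2 and 9.13 FPKM in APL#1, about 7136 and 1274 fragments, a plain ratio of 5.18 (95% counting interval 4.88 to 5.50). In the authors' deposited table its p was 6.25e-06 and its q 0.0104, a comparison of these libraries only. It was the most abundant of the 40 genes in APL#2 and ranked 4 in APL#1, behind Gpx1, Prdx5 and Gstm1. The gene lies on chromosome 8 (mm9, 34763709 to 34808634 in the deposited table), with no overlapping gene there. Its nearest measured genes on either side did not share the difference: Ppp2cb had 1.69 FPKM in APL#2, against 1.92 FPKM in APL#1, and Gtf2e2 had 1.13 FPKM, against 1.499 FPKM. The 5 measured genes within 5 Mb had a median ratio of 0.901.

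The genes that make glutathione showed no difference of the size of that of Gsr. Gclc and Gclm encode the catalytic and modifier subunits of glutamate-cysteine ligase, the rate-limiting enzyme of glutathione synthesis, and Gss encodes glutathione synthetase, which adds the last residue. Gclm stood at 1.75 FPKM in APL#2 and 1.48 FPKM in APL#1, a ratio of 1.18 (1.04 to 1.35). Gclc stood at 0.753 FPKM in APL#2 and 0.809 FPKM in APL#1, with about 145 and 144 fragments and an interval of the ratio from 0.734 to 1.18. Gss stood at 0.323 and 0.423 FPKM. Gclm lay above the all-gene median with an interval wholly above 1, and the intervals of Gclc and Gss include a ratio of 1. Gsr thus made up 26.7% of the summed FPKM of all 40 genes in APL#2 and 7.17% in APL#1. The sum was 177.3 FPKM in APL#2 and 127.2 FPKM in APL#1. Without Gsr it was 130.03 and 118.1 FPKM, and without both Gsr and Prdx5 it was 99.1 and 101.3 FPKM, so those 2 genes carry the difference in the sum.

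**Figure D2:**
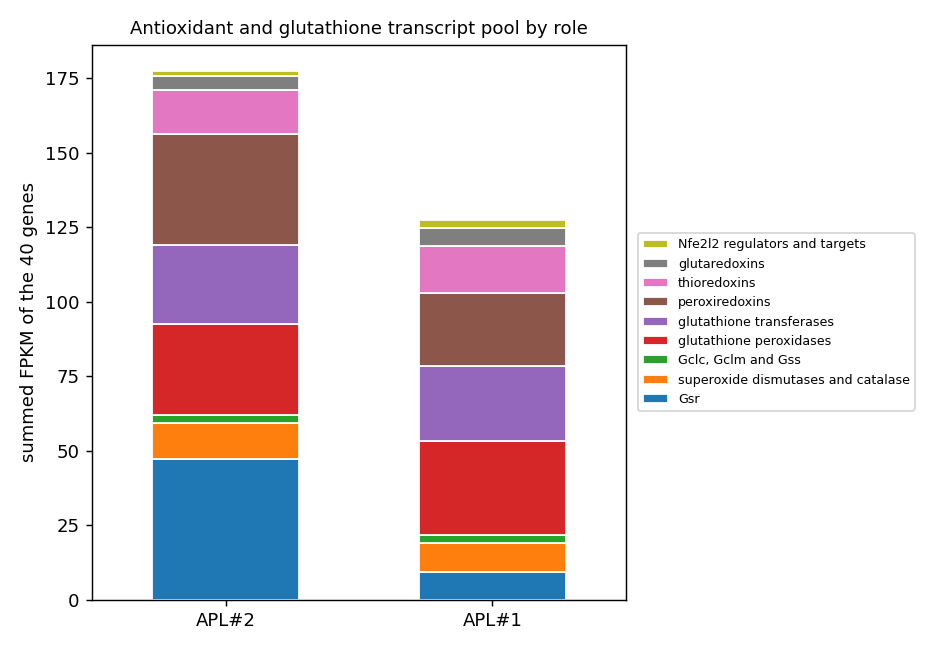
Summed FPKM of the 40 genes in APL#2 and APL#1, 1 library each, stacked by role with Gsr drawn apart from the other glutathione synthesis genes. The taller APL#2 bar (177.3 against 127.2 FPKM) comes from Gsr (47.3 against 9.13) and from the peroxiredoxins (37.2 against 24.4); the glutathione peroxidases (30.3 and 31.4) and transferases (26.6 and 25.2) are close.

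Among the enzymes that remove superoxide, the secreted form went one way and the intracellular forms the other. Sod3, the dismutase that cells release to the surface and matrix, stood at 5.77 FPKM in APL#2 and 0.152 FPKM in APL#1, about 1217 and 30 fragments. The plain ratio was 38.0 (95% counting interval 26.1 to 55.9), and the difference on the log2(FPKM + 1) scale was 2.56, which understates it because the APL#1 level is far below 1. In the authors' deposited table its p was 3.75e-07 and its q 0.000979. Gsr and Sod3 were the 2 members with a q of at most 0.05 in the authors' deposited table, where 0.0473% of all genes had one. Sod3 ranked 7 among the 40 genes by level in APL#2 and 36 in APL#1. It lies on chromosome 5 (mm9, 52755042 to 52760977), where the nearest measured gene, Dhx15, stood at 3.92 FPKM in APL#2 and 3.999 FPKM in APL#1. On the other side, 1810013D10Rik stood at 0.884 FPKM in APL#2 and 1.28 FPKM in APL#1. These 2 were the only measured genes within 5 Mb, which is few.

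Sod1, the copper-zinc dismutase of the cytosol, stood at 5.31 FPKM in APL#2 and 8.34 FPKM in APL#1, a ratio of 0.637 (0.527 to 0.768). Sod2, the manganese dismutase of mitochondria, stood at 0.375 FPKM in APL#2 and 0.556 FPKM in APL#1, a ratio of 0.675 (0.531 to 0.855). Both ratios lay below the all-gene ratio of 0.833, but the interval of Sod2 includes it. The order of the dismutases by level therefore differed: Sod3 and Sod1 were nearly level in APL#2, where Sod1 had 0.921 times the FPKM of Sod3, whereas in APL#1 Sod1 had 54.9 times that of Sod3. Catalase (Cat), which splits hydrogen peroxide without a cofactor to recharge, stood at 0.496 FPKM in APL#2 and 0.879 FPKM in APL#1, a ratio of 0.564 (0.415 to 0.759). Cat lies in a stretch of chromosome 2 in which 71 of 72 measured genes fell short of the median of all measured genes. Ccs, the copper chaperone that loads Sod1 and no member of the 40, stood at 1.44 FPKM in APL#2 and 0.820 FPKM in APL#1 and lies on chromosome 19.

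Both measured glutathione peroxidases lay within the quartiles of the difference over all measured genes (-0.37 to 0.04). The counting interval of Gpx1 lay above the all-gene ratio of 0.833. Gpx1, the abundant cytosolic selenoenzyme that reduces hydrogen peroxide, stood at 24.1 FPKM in APL#2 and 23.9 FPKM in APL#1, about 1460 and 1338 fragments, a ratio of 1.009 (0.937 to 1.09). Gpx4, which reduces lipid peroxides within membranes and restrains ferroptosis, stood at 6.05 FPKM in APL#2 and 7.34 FPKM in APL#1, a ratio of 0.825 (0.710 to 0.962), close to the all-gene ratio; 2 named pseudogenes of Gpx4 make its level uncertain. Set against Gpx1, Gsr had 1.96 times the FPKM of Gpx1 in APL#2 and 0.382 times that of Gpx1 in APL#1. Gpx3, the secreted plasma form, was low at 0.130 and 0.182 FPKM (about 12 and 15 fragments). Gpx7, an endoplasmic reticulum form, rested on about 1 fragment in APL#2 and was listed at 0 in APL#1, too few for a ratio.

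Glutathione transferases attach glutathione to electrophiles, and some also act as peroxidases. Of 8 members, 6 were measured, none was at least 2-fold different, and each of the 6 exceeded the median of all measured genes; their own median difference was 0.07. That median was -0.12 without the members in the stretches, -0.12 at a mean FPKM of at least 5, where Gstm1 alone is left, and -0.11 over all 8 without a filter. Gstm1, of the mu class, was the most abundant at 11.9 FPKM in APL#2 and 13.04 FPKM in APL#1, a ratio of 0.914 (0.831 to 1.00). Gsto1, of the omega class, stood at 3.50 FPKM in APL#2 and 1.94 FPKM in APL#1, a ratio of 1.81 (1.44 to 2.26). Mgst1, a microsomal transferase, stood at 4.72 FPKM in APL#2 and 3.26 FPKM in APL#1, a ratio of 1.45 (1.21 to 1.74). Gstp1, of the pi class, stood at 2.36 FPKM in APL#2 and 1.85 FPKM in APL#1, a ratio of 1.27 (0.947 to 1.73). Those 3 genes with a ratio above 1 all lie in stretches of chromosomes 6 and 19 that were higher in APL#2. Mgst2 (2.39 and 2.63 FPKM) and the mitochondrial and peroxisomal Gstk1 (1.09 and 1.35 FPKM) were close to even. The unmeasured Mgst3 stood at 0.300 FPKM in APL#2 and 0.527 FPKM in APL#1, and Gstm5 at 0.293 and 0.613 FPKM, on about 16 and 30 fragments. Gstm1 and Gstm5 belong to a cluster of close copies on chromosome 3, and Gstp1 has the near-identical neighbour Gstp2 (0.862 FPKM in APL#2 and 0.822 FPKM in APL#1), so reads may have been split among them. Gstm7, another gene of the mu class cluster, was listed at 0 in APL#2 and stood at 0.476 FPKM in APL#1.

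The peroxiredoxins went both ways. Prdx5, a peroxiredoxin found in mitochondria, peroxisomes and cytosol, stood at 30.9 FPKM in APL#2 and 16.8 FPKM in APL#1, about 2205 and 1106 fragments, a ratio of 1.84 (1.71 to 1.98). Prdx2, a cytosolic form that is abundant in red cells, went the other way, at 1.23 FPKM in APL#2 and 2.72 FPKM in APL#1, a ratio of 0.4502 (0.356 to 0.572). By the plain ratio Prdx2 was the 1 measured member at least 2-fold lower (6.83% of measured genes were), and on the log2(FPKM + 1) scale its difference of -0.74 stayed under 2-fold. It has 2 named pseudogenes. The gene beside Prdx2 on chromosome 8, Junb, stood at 5.76 FPKM in APL#2 and 12.8 FPKM in APL#1, a ratio of 0.4499, whereas Dnase2a on the other side stood at 1.74 and 1.94 FPKM and the 36 measured genes within 5 Mb had a median ratio of 0.785. No source used here states whether counting used strand, and the loci of Prdx2 and Junb do not overlap in the deposited table.

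The other peroxiredoxins were near even or too low to compare. Prdx6, which uses glutathione in place of thioredoxin, stood at 3.07 FPKM in APL#2 and 2.95 FPKM in APL#1, and has a named pseudogene. Prdx3, the mitochondrial form, stood at 1.16 and 1.10 FPKM, a ratio of 1.05 (0.781 to 1.43). Prdx1 stood at 0.706 FPKM in APL#2 and 0.865 FPKM in APL#1, likewise with a named pseudogene. Prdx4, the form of the endoplasmic reticulum, stood at 0.126 FPKM in APL#2 and 0.0227 FPKM in APL#1. These values match as few as 6 fragments and 1 fragment, with an interval of the ratio from 0.673 to 255.3. That interval includes 1, so no direction can be read for Prdx4.

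Most thioredoxin genes stayed near the all-gene ratio. Txn1, the cytosolic thioredoxin, stood at 6.85 FPKM in APL#2 and 7.64 FPKM in APL#1, a ratio of 0.897 (0.780 to 1.03). Txn2, the mitochondrial thioredoxin, stood at 3.54 FPKM in APL#2 and 4.35 FPKM in APL#1, a ratio of 0.814 (0.685 to 0.963). The reductase genes were lowly expressed: Txnrd1 (cytosol) stood at 0.734 FPKM in APL#2 and 0.981 FPKM in APL#1, and Txnrd2 (mitochondria) at 0.343 and 0.302 FPKM. Reads at Txnrd2 may be shared with overlapping genes, so its level is uncertain. Set against each other within a library, Gsr had 64.4 times the FPKM of Txnrd1 in APL#2 and 9.30 times in APL#1. Txnip, the thioredoxin-binding protein that follows glucose supply, stood at 3.13 FPKM in APL#2 and 2.58 FPKM in APL#1, a ratio of 1.21 (1.06 to 1.39).

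All 4 glutaredoxins, small enzymes that reverse the binding of glutathione to proteins or carry iron-sulphur clusters, had a slightly lower value in APL#2, although centring on the all-gene median turns Glrx2 (0.03) and Glrx5 (0.03) round, and upper quartile scaling turns Glrx5 (0.02) round. Glrx5, needed for mitochondrial iron-sulphur clusters, stood at 2.00 FPKM in APL#2 and 2.31 FPKM in APL#1. Glrx stood at 1.64 and 2.01 FPKM, Glrx3 at 0.784 and 1.08 FPKM, and Glrx2 at 0.379 and 0.525 FPKM. Their ratios of 0.721 to 0.867 lay around the all-gene ratio of 0.833, and each interval of the 4 includes that value.

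**Figure D3:**
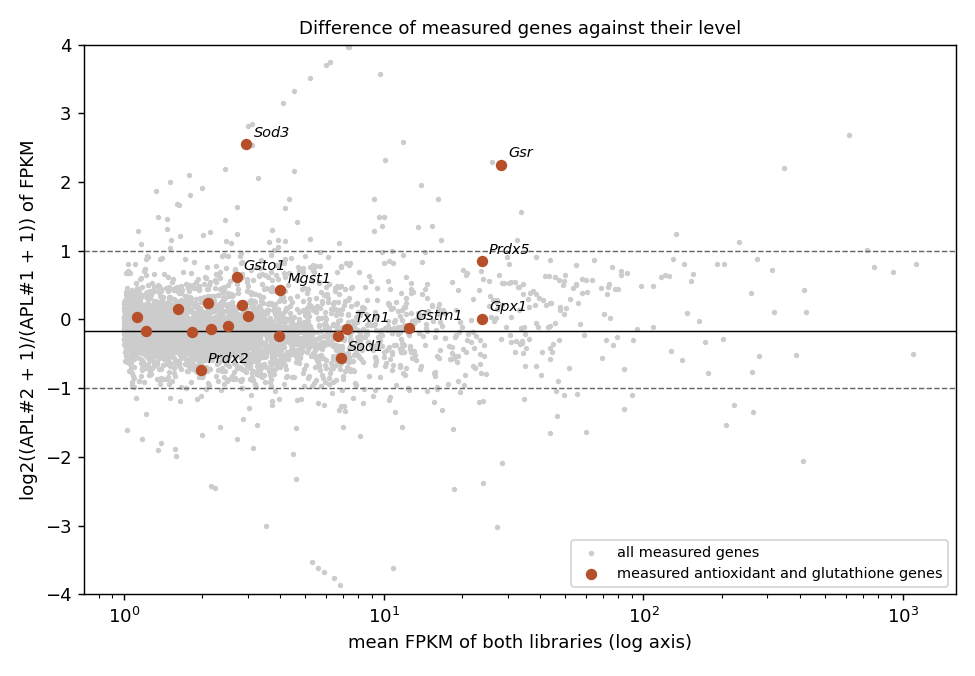
Difference on the log2(FPKM + 1) scale, APL#2 over APL#1, against mean FPKM (log axis) for all measured genes (grey) and the 21 measured antioxidant and glutathione genes (colour); 31 measured genes lie outside the plotted range. Dashed lines mark 2-fold and the solid line the all-gene median of -0.17: Gsr (2.25) and Sod3 (2.56) lie above the upper dashed line and no member lies below the lower one.

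The regulator Nfe2l2 was lower in APL#2, and the targets listed with it were too low to be read as a group. Nfe2l2 stood at 0.464 FPKM in APL#2 and 0.981 FPKM in APL#1, about 51 and 100 fragments, a ratio of 0.473 (0.330 to 0.667). Keap1, its inhibitor, stood at 0.571 FPKM in APL#2 and 0.914 FPKM in APL#1, a ratio of 0.624 (0.481 to 0.809). The FPKM of Nfe2l2 relative to Keap1 was thus 0.813 in APL#2 and 1.07 in APL#1. No interval was computed for these quotients, and the intervals of the Nfe2l2 and Keap1 ratios overlap, so no shift between the genes can be read. RNA levels do not measure the activity of Nfe2l2, which is set largely by degradation of the protein. Hmox1, haem oxygenase, stood at 0.401 FPKM in APL#2 and 0.637 FPKM in APL#1, a ratio of 0.629 (0.394 to 0.974). That interval includes the all-gene ratio of 0.833. Nqo1, a quinone reductase, stood at 0.0720 FPKM in APL#2 and 0.0389 FPKM in APL#1, values that match as few as 2 fragments and 1 fragment, with an interval of the ratio from 0.0963 to 109.1. Srxn1, sulfiredoxin, which rescues over-oxidised peroxiredoxins, stood at 0.204 FPKM in APL#2 and 0.0147 FPKM in APL#1. The smallest whole numbers that fit these Srxn1 values within 0.5% are 15 fragments and 1 fragment, a plain ratio of 13.9 with a 95% counting interval of 2.13 to 584.1. From the transcript length the estimate for Srxn1 was about 32 and 2 fragments, with an interval of 3.78 to 127.5. In the authors' deposited table Srxn1 had a p of 0.0164 and a q of 1.00. All 5 genes of this role were below the measured threshold.

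Nfe2l2 binds antioxidant response elements together with small Maf proteins, and the promoters of the 40 genes were therefore read for that element. RefSeq promoters on GRCm38.p6, 250 bases before to 50 after a gene's start, were at hand for 35 of the 40 genes; Gsr, Sod3, Gclc, Hmox1 and Prdx6 had no entry. The motifs TGACNNNGC and TGAGNNNGC, on both strands, were found in 10 of these 35 genes (28.6%), beside 30.8% of all 27025 genes with a promoter entry, so the share was close to that of promoters at large. With TGACNNNGC alone it was 8 of 35 (22.9%), beside 14.0% of all genes, and with TGAGNNNGC alone 5 of 35 (14.3%), beside 19.8%. Of the 10 genes with a match, 4 had the higher value in APL#2 and 6 the lower one; of the 25 without, 9 had the higher value and 16 the lower one. Sites are printed below for genes that went different ways, read along the gene's own strand with the match in capitals; those of Srxn1, Gstp1 and Prdx1 overlap the AP-1 motif TGANTCA.
Srxn1: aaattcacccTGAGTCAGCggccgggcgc
Gstp1: tccaacgtgtTGAGTCAGCatccggggcg
Prdx1: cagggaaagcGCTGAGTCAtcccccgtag
Gclm: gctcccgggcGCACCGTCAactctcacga
Mgst1: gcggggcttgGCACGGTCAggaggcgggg
Sod1: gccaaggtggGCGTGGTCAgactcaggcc
Txnrd1: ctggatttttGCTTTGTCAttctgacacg
Nfe2l2: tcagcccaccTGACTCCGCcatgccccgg

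Counted from the gene's start, the first base of the site is at -45 in Srxn1, -74 in Gstp1, -133 in Prdx1, -134 in Gclm, -56 in both Mgst1 and Sod1, -92 in Txnrd1 and -240 in Nfe2l2. Unlike those of the other genes, the end of the Nfe2l2 window was not found near the start of a GENCODE M21 transcript. Its start and that position are therefore uncertain. The first 4 of these genes had plain ratios of 13.9, 1.27, 0.817 and 1.18, and the last 4 had 1.45, 0.637, 0.748 and 0.473, so a match stood beside values in both directions. The promoter of Srxn1, the target with the widest ratio, is shown over the 250 bases before its start (GRCm38.p6, chr2:152105274-152105523, plus strand), with its matches to TGAGNNNGC in capitals, the first on the opposite strand; its TGACNNNGC match begins at 29, past the start, and is not in the printed bases.
Srxn1 promoter: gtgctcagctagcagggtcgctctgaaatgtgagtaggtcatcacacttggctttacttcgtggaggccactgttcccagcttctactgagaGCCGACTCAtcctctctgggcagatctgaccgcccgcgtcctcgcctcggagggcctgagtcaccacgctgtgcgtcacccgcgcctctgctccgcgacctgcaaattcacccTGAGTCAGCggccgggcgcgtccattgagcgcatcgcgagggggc
A match of letters is not a measured binding site, and no match says only that these letters are not in the window.

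Several differences followed position on the chromosome. Earlier results of these data had shown stretches in which most genes shift together: all of chromosome 19 (134 measured genes, median plain ratio 1.63), chromosome 6 from Capg to Far2 (153 genes, 1.13) and chromosome 2 from Psmd14 to 1110034G24Rik (72 genes, 0.432), beside 0.818 over the 3741 measured genes elsewhere. Of the 40 members, 7 lie in them: Prdx5, Gsto1, Gstp1 and Prdx3 on chromosome 19, Mgst1 on chromosome 6, and Nfe2l2 and Cat on chromosome 2. Prdx5 had a ratio of 1.84 beside a median of 1.58 over its 87 measured neighbours within 5 Mb, a value below its counting interval. Mgst1 (1.45) likewise had an interval above the median of its 12 neighbours (1.17), and Prdx3 (1.05) had one below that of its 2 neighbours (2.22), which are few. The intervals of Gsto1 (1.81) and Gstp1 (1.27) include the medians of their neighbours, 1.65 over 16 genes and 1.58 over 74 genes. Nfe2l2 lies at mm9 chromosome 2, 75513575 to 75542698, and its ratio of 0.473 stood beside 0.409 for its 7 measured neighbours, none of them above the median of all measured genes. Cat, at 103294060 to 103325310 on the same chromosome, had 0.564 beside 0.458 for its 5 neighbours. What part the stretches have in these 7 differences was not tested.

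**Figure D4:**
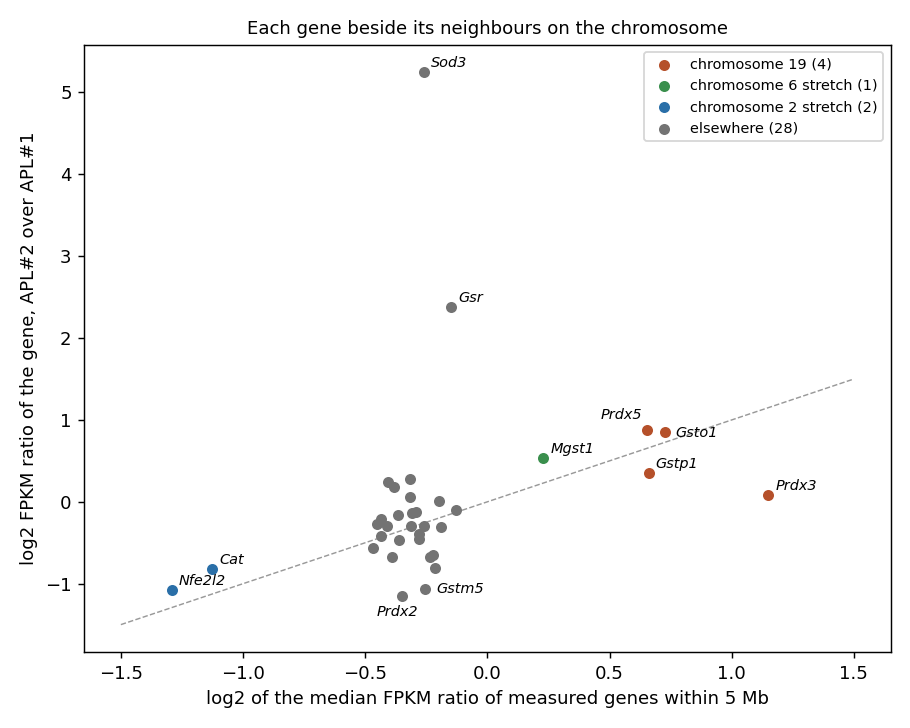
Log2 of the plain FPKM ratio of each gene, APL#2 over APL#1, against log2 of the median ratio of measured genes within 5 Mb, for the 35 members with a mean of at least 0.2 FPKM, coloured by stretch; the dashed line marks equal values. Nfe2l2 and Cat sit at the lower left with their neighbours, and Prdx5 and Gsto1 at the right with neighbours that were also higher in APL#2. Gsr and Sod3 stand far above the median ratios of their neighbours, 0.901 over 5 genes and 0.835 over 2 genes.

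Outside the stretches, Gsr and Sod3 stood apart from the other members. Of the 16 measured members there, those 2 were the ones at least 2-fold different on the log2(FPKM + 1) scale. The other 14 spanned -0.74 (Prdx2) to 0.20 (Txnip), with a median of -0.14, beside -0.19 for all measured genes outside the stretches. Of the 19 members under the threshold, 14 had the lower value in APL#2, beside 56.4% of genes above 0 with a mean under 1 FPKM. Their sum was 7.47 FPKM in APL#2 and 10.3 FPKM in APL#1.

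Of 119 names of wider redox genes listed by role, some of them other symbols of the same gene, 112 were found in the table. Of these, 45 were measured and 0 were at least 2-fold higher or lower on the log2(FPKM + 1) scale (4.54% of all measured genes were, in either direction). Their median difference was -0.25 beside -0.17 for all measured genes. Where a gene is named below that is not the most abundant of its list, it was chosen after its values were seen.

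Genes that supply NADPH, the electron donor of both glutathione reductase and thioredoxin reductase, were mostly lower in APL#2. Of 8 measured, 7 lay below the all-gene median and 1 above, with a list median of -0.39. Taldo1, transaldolase, was the most abundant at 10.9 FPKM in APL#2 and 15.3 FPKM in APL#1, and Tkt, transketolase, stood at 10.2 and 15.6 FPKM. Idh2, the mitochondrial isocitrate dehydrogenase that makes NADPH, stood at 1.92 FPKM in APL#2 and 3.96 FPKM in APL#1. The exception was G6pdx, glucose-6-phosphate dehydrogenase, the entry enzyme of the pentose phosphate pathway, at 2.44 FPKM in APL#2 and 1.37 FPKM in APL#1. Gsr had 19.4 times the FPKM of G6pdx in APL#2 and 6.68 times in APL#1.

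The lists of cysteine supply, partners and selenoproteins went both ways. Of 5 measured genes of cysteine and glutathione turnover, 3 lay above and 2 below the all-gene median; Esd was the most abundant (10.9 FPKM in APL#2 and 11.9 FPKM in APL#1). Slc3a2, the heavy chain of the cystine carrier, stood at 3.13 FPKM in APL#2 and 1.90 FPKM in APL#1 and lies on chromosome 19, whereas Slc7a11, the light chain, was at 0.0412 and 0.0571 FPKM. Of 10 measured partners and further targets of Nfe2l2, 8 lay above and 2 below. Ftl1, ferritin light chain, stood at 66.5 FPKM in APL#2 and 86.6 FPKM in APL#1, while Fth1, ferritin heavy chain on chromosome 19, stood at 25.5 and 15.1 FPKM. All 5 genes of the wider lists on chromosome 19 had the higher value in APL#2, 3 of them measured. Of the 134 measured genes of that chromosome, 133 lay above the all-gene median.

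Of 8 measured genes in the list of selenoproteins and selenocysteine insertion, 4 lay above and 4 below the all-gene median. The 8 include Selenbp1, a selenium-binding protein gene that is neither. Sephs2, which makes the selenium donor, stood at 4.69 FPKM in APL#2 and 6.26 FPKM in APL#1, and Sepw1, selenoprotein W, at 6.06 and 3.35 FPKM. Among 12 measured genes of the thioredoxin fold and of methionine sulfoxide repair, 6 lay above and 6 below, with Msra, a methionine sulfoxide reductase, at 30.7 FPKM in APL#2 and 26.4 FPKM in APL#1. Of 23 other transferases and peroxidases, 21 were under 1 FPKM in both libraries, and Alox5ap, which hands arachidonic acid to 5-lipoxygenase, was the most abundant at 15.7 FPKM in APL#2 and 21.1 FPKM in APL#1.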

How the data were processed

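RNA sequencing was analysed from 1 library for each of 2 leukaemias. TopHat2 2.0.10, Cufflinks, Cuffdiff and build mm9 are listed, without roles, in the submitters' processing notes; annotation, strand use and filters: not given in the sources used here. Values deposited by the authors were read as FPKM from the Cuffdiff layout of the table, whose header names no unit. The deposited table also holds the authors' test statistic, a score per gene that was not used, and, for each gene, a p-value and a q-value of the authors; its log2 column was not used.

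Differences are log2((APL#2 + 1)/(APL#1 + 1)) with a pseudocount of 1 FPKM, which understates those of low genes; genes with mean FPKM of at least 1 are called measured. No test was possible with 1 library per leukaemia. Fragments were estimated as FPKM times the median length of RefSeq-linked GENCODE M21 transcripts over the value of 1 fragment on 1 kb. The smallest whole numbers that fit were used for Prdx4, Nqo1 and Srxn1. Ratio intervals are exact binomial (95%). The calls and the step estimate were tested on simulated data. Python 3.11.15, pandas 2.3.3, numpy 2.4.6 and scipy 1.17.1 were used. Members, lists and stretches were chosen with earlier results of these data known, and the promoter motifs after the values were seen. Members were named where at least 2-fold different, among the 10 most abundant, or the 1 measured gene of a role, and the others are listed with their values; of the wider lists, the most abundant gene. Alternatives were other pseudocounts, scalings, filters and folds.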

Additional observations from a re-analysis of the deposited data

How the results depend on the processing

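No paired analysis was possible because each leukaemia has 1 library. Medians of role lists rest on 2 to 6 measured genes. Of 86 alternatives to the summary values, 63 stayed within a tolerance. It was 1.5-fold for counts and, for medians, a width set by the counting intervals of the middle genes. Within it a value can still change, as from 2 to 3 members, or turn sign, as the transferase median did. Gsr stayed at least 2-fold higher in APL#2 under every setting run, and Sod3 under every setting except the filter at 5 FPKM, which removes it. Members at least 2-fold higher numbered 2, with 1 at a mean FPKM of at least 5 and 4 at a fold of 1.5; centring on the all-gene median and upper quartile scaling each gave 3, adding Prdx5 (1.02 and 1.07). Members at least 2-fold lower numbered 0, with 1 (Prdx2) at a pseudocount of 0.1, at a fold of 1.5 and by the plain ratio. Wider redox genes at least 2-fold different numbered 0, with 1 at a pseudocount of 0.1. The share of all measured genes called was computed for the main setting and the plain ratio only. Counts of members or wider genes under the other settings therefore cannot be judged against all genes.

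The median difference of measured members, 0.01, was 0.18 when centred, 0.16 with upper quartile scaling, -0.12 at a mean FPKM of at least 5, -0.11 without a filter and -0.13 without the members in the stretches. Upper quartile scaling moved the median of all measured genes to -0.02. For dismutases and catalase (0.99) the median was 1.95 at a pseudocount of 0.1, -0.57 at a mean FPKM of at least 5, where Sod1 alone is left, and -0.25 without a filter. For glutathione synthesis and recycling (1.202) it was 1.37 centred, 1.38 with upper quartile scaling, 2.25 at a mean of at least 5 (Gsr alone) and 0.0524 without a filter. Peroxidases (-0.11) stood at 0.0574 centred and 0.0991 with upper quartile scaling, thioredoxins (-0.14) at 0.0671 with upper quartile scaling, and peroxiredoxins (0.04) at 0.84 at a mean of at least 5 (Prdx5 alone) and -0.35 without the stretches. Of 40 members, 11 changed sign under some setting, with differences of -0.17 (Gstk1) to 0.01 (Gpx1) as reported; 10 changed with centring, 5 with upper quartile scaling and 1 with total FPKM scaling. Centring adds the same amount to every gene, so small negative differences turn by construction. The transferase median (0.07) was -0.12 without the stretches and at a mean of at least 5, and -0.11 without a filter. Beyond what a filter removes, the cause of these shifts was not tested.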
